A study of Homo sapiens with 3 samples.

Results

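The comparison set the library from glucose-deficient 95D cells against the control library and described what each held besides ATF4, the RNA that filled almost all of the glucose-deficient one. Its members were every row of the deposited table that lists these libraries side by side, 14338 of the 28671 rows deposited for the series. Rows of neighbouring genes that carried the same values were counted as 1 region, which left 12295 regions. Of these, 4 belong to ATF4 and its near-identical pseudogenes, and the other 12291 regions and the 5917 genes named in them are described here.

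95D is an established human lung cancer line of wild-type genotype. Per the labels' protocols, a long non-coding RNA named DAMER was made in vitro, given a biotin tag and mixed with cell lysate, and the RNA that came down with it was sequenced after depletion of ribosomal RNA. The control cells spent 48 h in control conditions, and the glucose-deficient cells spent 24 h in complete medium and then 48 h in medium without glucose that held 10% dialyzed serum. Which serum the control cells had, and whether the control library came from a pulldown with DAMER, as its protocol says, or from plain sequencing of RNA, as its title says, is not settled by the labels. Each side was 1 library of 1 line, so no difference has a replicate check, no p-value is given, and what belongs to glucose and what belongs to the library cannot be told apart.

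ATF4 encodes the transcription factor of the integrated stress response, which cells switch on when amino acids or glucose run short and which drives genes such as the asparagine synthetase gene ASNS. An RNA pulldown with a bait retrieves RNAs bound to the bait, directly or through proteins, and can carry along other cellular RNAs that stay on the beads. Mitochondrial transcripts, small structural RNAs and some nuclear long non-coding RNAs are among the most abundant RNAs of a cell once ribosomal RNA has been removed.

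The pseudogenes had to be set aside with ATF4 because their sequences are nearly the same, which the stretch of the coding sequence where they differ most shows. ATF4P3 is identical to ATF4 at 97.5% of 1056 aligned coding bases and ATF4P4 at 97.0% of 841. The 90 bases below are coding bases 272 to 361 of ATF4 (GENCODE release 29 transcripts, GRCh38), which lie at chr22:39521818-39521907 on the plus strand, and the aligned bases of ATF4P3 at chr17:76226446-76226535 on the minus strand and of ATF4P4 at chr11:113790589-113790678 on the plus strand. Capitals mark the 4 and 6 bases at which the pseudogenes differ from ATF4.
ATF4: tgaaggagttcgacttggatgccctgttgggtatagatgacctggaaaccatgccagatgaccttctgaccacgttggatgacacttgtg
ATF4P3: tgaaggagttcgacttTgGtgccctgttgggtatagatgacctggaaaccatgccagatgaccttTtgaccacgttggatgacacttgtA
ATF4P4: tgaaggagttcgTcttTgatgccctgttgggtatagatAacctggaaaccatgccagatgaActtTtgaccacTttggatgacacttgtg

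No stretch of 150 bases, the length of a read, was shared without a difference: 0 of 907 such windows of ATF4P3 and 0 of 1781 of ATF4P4 occur in the ATF4 mRNA of 2019 bases. ATF4 itself (chr22:39519695-39522685, plus strand) had 897.5 fragments in the control library and 18747970 in the glucose-deficient library. The region shared by ATF4P3 and RNF157, the gene it lies in, had 24 and 12240 fragments, and the pair of ATF4P4 regions had 36.5 and 915 fragments and 0 and 1754 fragments. A fragment is the unit recovered from the step between the deposited values. It is taken here as a read pair, and 0.5 as a lone mate, which the sources used here do not state.

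Outside this family the control library held 3780904.5 fragments and the glucose-deficient library 12936, which was 0.0689% of it (exact binomial interval at 95%, 0.0677% to 0.0701%). These are called residual fragments here. The whole libraries held 3781862.5 and 18775814 fragments, so the deeper library measured everything besides ATF4 with far fewer fragments than the shallower one. At an equal share of the residual, 292 control fragments stood against 1 glucose-deficient fragment. All intervals cover counting error only, because each side is 1 library. They treat fragments as independent molecules, which reads without molecular identifiers need not be, so they may be too narrow.

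Most of what was left besides ATF4 lay outside the listed regions. The listed regions held 22.0% of the control residual and 8.71% of the glucose-deficient residual, a share 2.52-fold lower (2.38 to 2.68). Expressed as glucose-deficient fragments per 1000 control fragments, the rate at which fragments were kept, the whole residual kept 3.42 (3.36 to 3.48), the part not listed kept 4.00 (3.93 to 4.08) and the listed regions kept 1.36 (1.28 to 1.44). A listed gene therefore had a lower share of the residual on average before any gene was looked at, and a share ratio taken of the listed fragments alone is 2.52 times the ratio taken of the residual. The second scale is given below wherever it removes or turns a direction stated for a named gene or list. How the authors chose the rows is a detail not given in the sources used here.

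Of the 5917 genes, 535 (9.04%) had a glucose-deficient fragment and 5382 had 0. Of those with a fragment, 348 genes had 1, 121 had 2, 35 had 3 to 5, 9 had 6 to 8 and 19 had 10 or more. Genes with a fragment had a median of 212 control fragments and genes without one a median of 49.5. Whether a gene was seen at all thus went with its control count.

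The same held for regions when the 12285 with 9.5 or more control fragments were split by that count. The share with a glucose-deficient fragment rose from 1.73% of the 2200 regions with 9.5 to 19.5 control fragments to 93.8% of the 16 regions with 5338.5 or more. The kept rate moved far less. It was 1.17 per 1000 (0.854 to 1.57) in the lowest class, between 0.938 and 1.42 in the next 7 classes, and 0.795 (0.679 to 0.924) in the class of the 16 most abundant regions, which includes 7SK. Over all 12285 regions it was 1.07 (1.00 to 1.14).

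**Figure D1:**
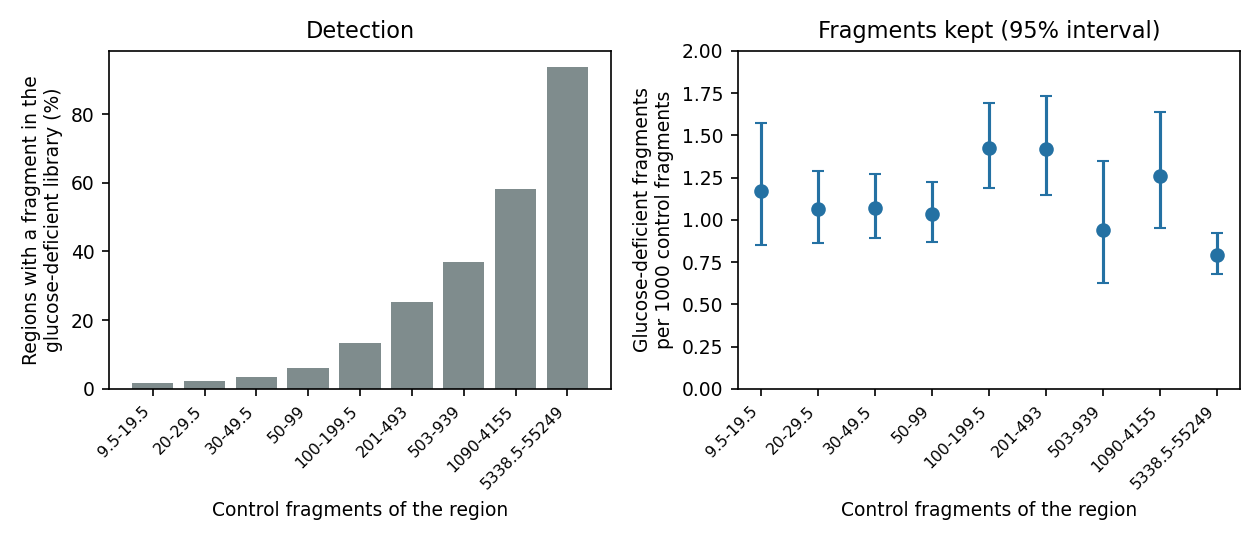
Left, the percentage of listed regions with a fragment in the glucose-deficient library, and right, glucose-deficient fragments per 1000 control fragments with 95% intervals, by the region's control fragments (1 library a side). Detection climbs from 1.73% to 93.8%, while the kept rate stays between 0.795 and 1.42.

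A set of 6 regions was almost absent from the control: regions with 2 or fewer control fragments held 4 control fragments in all and 238 glucose-deficient fragments, which were 21.1% of the listed glucose-deficient residual. No listed region had a control count between 2 and 9.5, and each of these 6 regions had 11 or more glucose-deficient fragments. Regions with so few control fragments are in the table only with a high glucose-deficient count, so their values are given as a description, with no fold, and nothing is read from their direction.

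LINC02432, a long intergenic non-coding RNA gene (chr4:141319450-141332618, minus strand), led all listed genes outside the family with 106 fragments in the glucose-deficient library and 0 in the control. LINC00343, also non-coding (chr13:105704280-105764440, plus strand), had 33 fragments against 0. A row that names no gene had 26 against 0. These regions were high in the glucose-deficient library and not detected in the control.

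3 protein-coding genes joined them. NOL4L (chr20:32443059-32585074, minus strand) had 45 fragments against 1, and UQCC1 (chr20:35302566-35412141, minus strand), which encodes an assembly factor of respiratory complex III, had 11 against 1. RAD51B, a gene of homologous recombination (chr14:67819779-68730218, plus strand), had 2 listed regions that went opposite ways: 17 fragments against 2 in one, and 0 against 43 in the other. Summed, RAD51B had 17 against 45 fragments, and all 17 came from the region with 2 control fragments. Which part of these long genes the regions cover is not known, because the table gives no coordinates, so the fragments cannot be assigned to exons or introns.

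**Figure D2:**
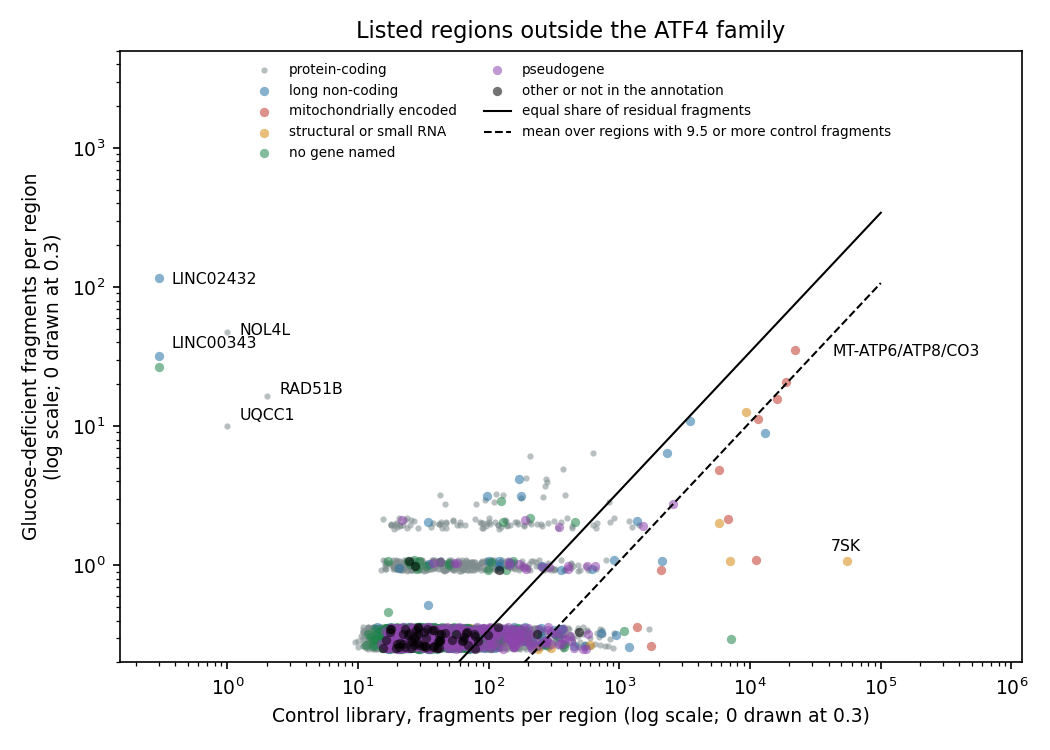
Fragments per listed region outside the ATF4 family in the control (x) and glucose-deficient (y) library, log scales with 0 drawn at 0.3 and a small vertical jitter; transcripts of X inactivation are not drawn. A few regions with 2 or fewer control fragments stand at 11 to 106 glucose-deficient fragments on the left, and 7SK lies far below both lines on the right.

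Taking shares of the residual, 249 genes (4.21%) stood 2-fold or more above the control and 69 (1.17%) stood 2-fold or more below it. The split depends on the scaling. It was 414 above and 7 below with shares of the listed fragments alone, and 151 above and 161 below with TMM factors. TMM scales by the middle of the ratios of genes with fragments in both libraries, so the 5382 genes at 0 have no part in it. The higher calls rest on very few fragments: 166 of the 249 genes had 1 fragment or less, 55 had 2 and 28 had 3 or more. A single fragment is enough for a gene with up to 146 control fragments, whereas 0 fragments counts as lower only from 1754 control fragments upward. Where the whole interval had to lie beyond 2-fold, 8 genes (0.135%) were higher and 12 (0.203%) lower. Among the 12 are genes listed on the same regions: RN7SK with 7SK, TALAM1 with MALAT1 and MT-ND4L with MT-ND4. The 8 were LINC02432, LINC00343, NOL4L, UQCC1, RAD51B, MBTPS1 and ASNS with ENSG00000284707, a gene listed on the same regions. Without the regions of 2 or fewer control fragments the 8 became 3, the last 3 of these names, so the count of 8 rests mostly on rows that could only be higher.

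ASNS, which makes asparagine and is a classic target of ATF4, had 6 fragments in the glucose-deficient library and 252 in the control. The gene (chr7:97852118-97872542, minus strand) had 6 listed regions, and 3 of them carried the fragments: 3 against 46.5, 2 against 37.5 and 1 against 26. The other 3 regions had 0 fragments against 30.5 to 57. Its share of the residual was 6.96-fold higher (2.53 to 15.4). With TMM factors it was 3.81-fold higher and the interval no longer lay wholly beyond 2-fold. MBTPS1, the site-1 protease that activates ATF6 and SREBP, had 2 fragments against 18 in 1 region and a ratio of 32.5 (3.65 to 136). That ratio rests on 2 fragments alone. The intervals of ASNS and MBTPS1 are each for 1 gene, with no allowance for the number of genes looked at.

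Of 42 genes listed for the amino acid and integrated stress response, 32 were in the table outside the family and 3 had a fragment, beside 9.04% of all genes: ASNS, the amino acid transporter SLC7A1 with 1 against 788, and the secreted hormone STC2 with 1 against 671. PPP1R15A, the stress-induced subunit that directs dephosphorylation of eIF2alpha, had 0 against 1116.5, and the glycyl-tRNA synthetase GARS1 had 0 against 862. Of the 32 genes, 1 was at least 2-fold higher (1 with its whole interval) and 2 at least 2-fold lower, beside 4.21% and 1.17% of all genes. The list as a whole had 8 fragments against 9327.5, a kept rate of 0.858 (0.370 to 1.69). Its share of the residual was 0.251 of that in the control (0.108 to 0.494), but its share of the listed fragments alone was 0.633 of it (0.273 to 1.25), an interval that includes 1. The 2 lower genes were SLC7A1 and STC2, at 0.371 and 0.436 of the residual and 0.936 and 1.10 of the listed fragments. In the related list of glutamine metabolism and transport, ASNS was the 1 gene of 21 with a fragment, and the amino acid transporters SLC38A1, SLC7A5 and SLC1A5 had 0 against 1045, 505.5 and 276.5.

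The glycolysis list kept 2.81 fragments per 1000 (1.29 to 5.35), 9 against 3197.5. GAPDH, the glycolytic dehydrogenase, had 6 fragments against 723.5, all from 1 of its 2 regions, and a ratio of 2.42 (0.887 to 5.30), or 6.12 (2.24 to 13.4) of the listed fragments alone. GPI, the isomerase of the second step of glycolysis, had 2 against 353.5, and the aldolase ALDOA and the enolase ENO1 had 0 against 403.5 and 397.5. Of 14 listed genes of glycolysis 3 had a fragment, beside 9.04% of all genes. Of the 14, 2 were at least 2-fold higher and 0 lower, beside 4.21% and 1.17% of all genes. Their median control count was 226 fragments against 55.5 over all genes. The share ratio of the list was 0.823 (0.376 to 1.56) of the residual and 2.08 (0.949 to 3.95) of the listed fragments alone, and both intervals include 1.

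Targets and partners of MondoA and ChREBP, transcription factors that answer to glucose phosphates, had 0 fragments in all 6 listed genes against 395.5 in the control. Among them were KLF10 with 0 against 123.5 and the arrestin-like ARRDC4 with 0 against 74. The interval of their kept rate reached from 0 to 9.37, so no difference from other listed regions was detectable at this depth. In the hexosamine and N-glycosylation list 3 of 12 genes had a fragment, 5 against 3078.5, beside 9.04% of all genes. The median control count of its genes was 134.5 fragments against 55.5 over all genes. OGT, the enzyme that puts O-linked N-acetylglucosamine on proteins, had 0 against 1251 and OGA, which takes it off, 0 against 443.5. In the pentose phosphate list the transketolase gene TKT had 2 fragments against 141 and the other 4 of 5 genes had 0.

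Mitochondrial mRNAs, which encode core subunits of the respiratory chain, made up 88.5 glucose-deficient fragments against 92006 in the control. All 8 listed genes had fragments, and all 8 were at least 2-fold lower in share of the residual, 4 of them with their whole interval. The region shared by MT-ATP6, MT-ATP8 and MT-CO3 had 34 fragments against 22058, and the region of MT-ND4 and MT-ND4L had 21 against 18873.5. MT-CO2, a subunit of cytochrome c oxidase, had 15 against 15995.5. Of the listed fragments alone the ratio was 1.14 (0.787 to 1.59) for the region of MT-ATP6, which turns its direction, 0.821 (0.508 to 1.26) for MT-ND4 and 0.692 (0.387 to 1.14) for MT-CO2. The 2-fold calls of these 3 regions therefore hold only for shares of the residual.

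MT-CO1, the catalytic subunit of cytochrome c oxidase, had the most control fragments of these mRNAs and fewer left than the others of its size. It had 13.5 fragments against 29255 over 3 regions, with 10.5 against 11392.5, 1 against 11124.5 and 2 against 6738. Its kept rate was 0.461 per 1000 (0.249 to 0.782), against 1.54 (1.07 to 2.15) for the region of MT-ATP6, a ratio of 3.34 (1.73 to 6.81) that needs no denominator. No rule set this pair in advance, and the interval does not allow for a choice made within these data. Of the listed fragments alone MT-CO1 stood at 0.340 of the control (0.184 to 0.577). MT-RNR2, the large ribosomal RNA of mitochondria, had 0 fragments against 3129.5. With the floor of 3 fragments in place of 0, its share of the residual was 3.57-fold lower. The interval of its ratio ran from 0 to 0.345. Of the listed fragments alone the same floor gives 0.707, which is no 2-fold difference. On that scale the list of mitochondrial mRNAs stood at 0.710 (0.570 to 0.874). As a group, these mRNAs kept 0.962 per 1000 (0.772 to 1.18), below the whole residual but with an interval that includes the 1.07 of listed regions with 9.5 or more control fragments.

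Small structural RNAs had the lowest kept rate of the 18 larger lists with any fragment. 7SK, a small nuclear RNA that sequesters the kinase P-TEFb (chr6:52995620-52995950, plus strand), was the richest listed region of the control with 55249 fragments and had 1 in the glucose-deficient library. Its share was 189-fold lower (33.9 to 7466). RMRP, the RNA of RNase MRP (chr9:35657754-35658017, minus strand), had 1 fragment against 7071 and was 24.2-fold lower (4.34 to 956), and RN7SL1, the scaffold RNA of the signal recognition particle (chr14:49586580-49586878, plus strand), had 2 against 5744 and was 9.83-fold lower (2.72 to 81.2). Of the listed fragments alone the ratios were 0.0134 (0.000338 to 0.0744) for 7SK, 0.104 (0.00264 to 0.582) for RMRP and 0.257 (0.0311 to 0.928) for RN7SL1, so the whole interval stayed beyond 2-fold for 7SK and not for the other two.

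RPPH1 kept more. This RNA of RNase P (chr14:20343075-20343407, minus strand) is a relative of RMRP in structure and protein partners, and it kept 12 fragments against 9353. Its kept rate of 1.28 per 1000 (0.663 to 2.24) was 9.07 times that of RMRP (1.34 to 388) and 70.9 times that of 7SK (10.5 to 3030). These pairs were not set in advance either, and their intervals do not allow for the choice. Its share of the residual was 2.67-fold lower (1.53 to 5.16), and of the listed fragments alone the ratio was 0.947 (0.489 to 1.65). Of the 19 structural RNA genes in the table, 6 had a fragment, 0 passed 2-fold higher and 6 passed 2-fold lower. The shares over all genes were 9.04%, 4.21% and 1.17%. These 6 genes lie on 5 regions, because RN7SK is listed on the region of 7SK. SNORA73A, also among them, shares its region with the long non-coding SNHG3. The list kept 17 fragments against 80994.5, 0.210 per 1000 (0.122 to 0.336), and stood at 0.155 (0.0902 to 0.248) of the listed fragments alone. Of its control fragments, 55249 were those of 7SK, so its rate rests largely on this 1 region. In the class of structural or small RNA regions, those besides 7SK kept 15 against 23979.5, or 0.626 per 1000 (0.350 to 1.03).

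The list of long non-coding RNAs, drawn up for nuclear ones but also holding the cytoplasmic NORAD, kept 1.40 per 1000 (1.00 to 1.90). MALAT1, a nuclear speckle RNA (chr11:65497688-65506516, plus strand), had 23 fragments against 21061 over 6 regions that its antisense gene TALAM1 shares. The region with the most control fragments had 9 against 12985.5, and the next had 10 against 3450.5. MALAT1 was 3.13-fold lower in share of the residual (2.09 to 4.94), but its share of the listed fragments alone was 0.806 of the control (0.511 to 1.21). NEAT1, the scaffold of paraspeckles (chr11:65422774-65445540, plus strand), lies beside it and had 13 against 5649.5, a kept rate of 2.30 (1.22 to 3.94) against 1.09 (0.692 to 1.64) for MALAT1. The ratio of NEAT1 was 0.673 (0.358 to 1.15) of the residual and 1.70 (0.903 to 2.91) of the listed fragments alone.

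Within NEAT1 the fragments sat in 4 of 15 regions. The richest region of the control had 7 against 2309, and a region of modest control level had 4 against 170.5. NORAD, a cytoplasmic long non-coding RNA that binds Pumilio proteins, had 3 against 297, while SNHG3, a snoRNA host gene whose region RCC1 shares, had 1 against 1430. Of 18 genes of this list in the table, 6 had a fragment, 2 were at least 2-fold higher in share of the residual, NORAD among them, and 3 lower. MALAT1 and TALAM1, on shared regions, are counted apart. The shares over all genes were 9.04%, 4.21% and 1.17%.

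**Figure D3:**
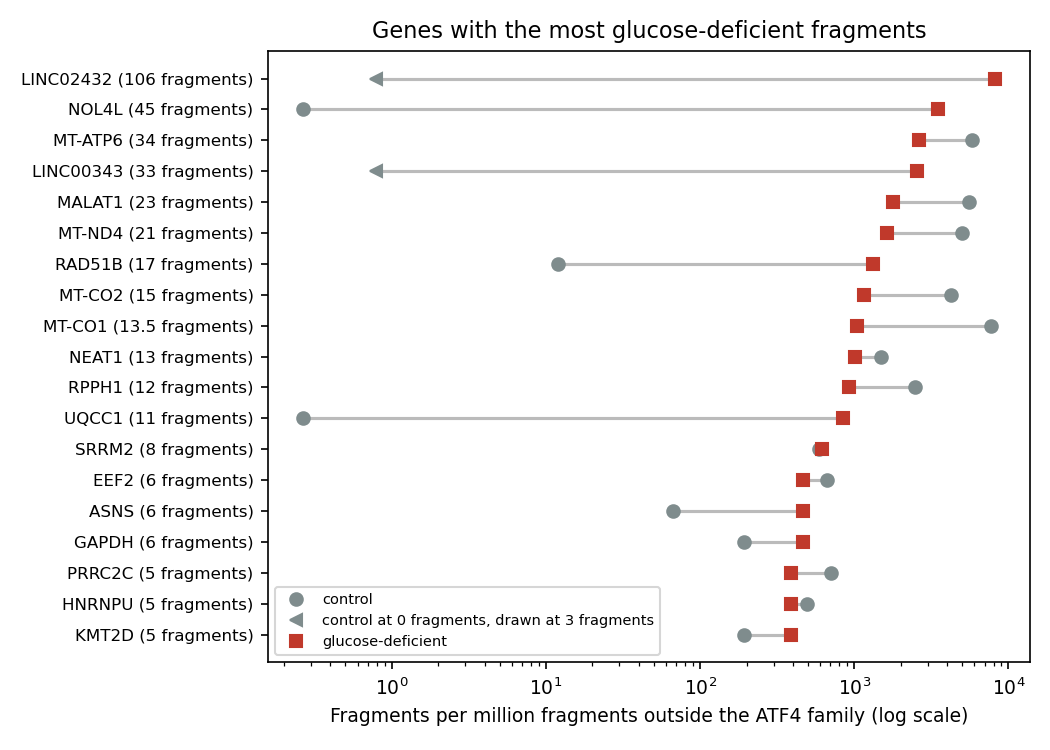
Share of the residual, on a log scale, in the control (circles) and the glucose-deficient library (squares) for 19 genes with the most glucose-deficient fragments, 1 library a side; a control at 0 is drawn at 3 fragments. GAPDH, ASNS and KMT2D lie higher in the glucose-deficient library, and the mitochondrial RNAs, MALAT1 and NEAT1 lie lower, although MT-ATP6 and NEAT1 turn to 1.14 and 1.70 when shares are of the listed fragments alone.

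SRRM2, a scaffold protein of nuclear speckles, had 8 against 2235.5 spread over 5 of 10 regions, a ratio of 1.05 (0.451 to 2.06) of the residual and 2.64 (1.14 to 5.21) of the listed fragments. In the list of splicing and RNA-binding proteins, 19 of 48 genes had a fragment, beside 9.04% of all genes. HNRNPA2B1 and HNRNPU, proteins that package nuclear RNA, each had 5, against 1682 and 1858.5, and the nucleolar protein gene NCL had 3 against 1943.5. The list had 54 fragments against 23969 and kept 2.25 per 1000 (1.69 to 2.94). In share of the residual, 2 of 48 genes were at least 2-fold higher and 2 lower, beside 4.21% and 1.17% of all genes. NCL, one of the lower, stood at 0.451 of the residual and at 1.14 of the listed fragments alone. Its members were abundant in the control, with a median of 396 fragments against 55.5 over all genes.

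Among genes of translation, EEF2, the elongation factor that moves the ribosome along, had 6 fragments against 2497.5, and EIF4G1, the scaffold of the cap-binding complex, had 4 against 577, all in 1 of 6 regions. EIF3A had 3 against 1498 and EIF5B 0 against 581.5. Of 30 translation factor genes 8 had a fragment, beside 9.04% of all genes, and the list kept 1.93 per 1000 (1.16 to 3.02). Of 59 genes for cytosolic ribosomal proteins 12 had a fragment, with 5 against 742.5 for RPS4X and 0 against 1378.5 for RPL8. The ribosomal list kept 1.67 per 1000 (1.03 to 2.55), and 4 of 59 were at least 2-fold higher and 1 lower. Of all genes, 4.21% were higher and 1.17% lower. The median control count was 142.5 fragments for translation factors and 123.5 for ribosomal proteins, against 55.5 over all genes.

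Long transcripts gave the next counts. KMT2D, a histone H3 lysine methyltransferase, had 5 fragments against 725.5, 4 of them in 1 of 11 regions, and a ratio of 2.01 (0.652 to 4.72). PRRC2C had 5 against 2682.5 in 3 of 23 regions. The ubiquitin ligases HUWE1 and UBR4 had 3 each, against 1168 and 1130, the DNA repair kinase PRKDC had 2 against 1626.5, and the chromatin regulator ANKRD11 had 0 against 1020.5. The list of very long protein-coding genes kept 1.82 per 1000 (1.11 to 2.81), with 9 of 21 genes seen, beside 9.04% of all genes. Their median control count was 354 fragments against 55.5 over all genes.

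At this depth the stress and growth lists below could not be told apart from the mean of the listed regions. Cytosolic heat shock and proteasome genes had 11 fragments against 6367.5 in 7 of 27 genes, with 2 against 718.5 for the chaperone HSPA4 and 0 against 574 for HSPA8. Endoplasmic reticulum chaperones had 5 against 5351.5 in 5 of 18 genes, with 1 fragment each for HSPA5, CANX and CALR against 999.5, 1327 and 553.5. Genes of DNA replication and mitosis had 8 against 7411.5 in 7 of 44 genes, with 0 against 439.5 for the proliferation marker MKI67. Histone genes had 3 against 4627 in 2 of 28. Their kept rates were 1.73, 0.934, 1.08 and 0.648 per 1000 in turn, and each interval included 1.07. Of all genes 9.04% had a fragment. The median control counts of these lists were 141.5, 168, 101 and 115 fragments in turn, against 55.5 over all genes.

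Some groups had nothing left to count. Interferon-stimulated genes had 0 fragments in 7 of 7 listed genes against 2394 in the control, with IFIT2 at 0 against 1281 and IFIT3 at 0 against 715, both antiviral proteins. The interval of their kept rate ran from 0 to 1.54, so a rate equal to the 1.07 of listed regions would not be distinguished at this depth. Nuclear genes of oxidative phosphorylation had 0 in 25 of 25 genes against 1608.5, with an interval from 0 to 2.30. Of 8 immediate early genes, JUN had 2 fragments against 510.5, and MYC and ATF3 had 0 against 565 and 451.5. Other rich genes at 0 were CHCHD3, a scaffold of mitochondrial cristae, with 1926 control fragments, and the chromatin protein gene NUCKS1 with 1530.5.

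Across the 18 lists with 1000 or more control fragments, 14 had a share ratio whose interval lay below 1 and 0 above. When shares were taken of the listed fragments alone, 2 lay below and 1 above, so most of these directions depend on the denominator. The 2 were the mitochondrial mRNAs and the structural RNAs, and the 1 was the list of splicing and RNA-binding proteins. The listed fragments include the 238 of regions with 2 or fewer control fragments. The other listed regions kept 1.07 per 1000. That value lay inside the interval of the mitochondrial mRNAs (0.772 to 1.18) and above that of the structural RNAs. The intervals of the lists of splicing and RNA-binding proteins, translation factors, very long genes and glycolysis lay above it. Listed protein-coding regions alone kept 1.21 per 1000 (1.11 to 1.31). The intervals of translation factors (1.16 to 3.02) and very long genes (1.11 to 2.81) include that value. Those of the splicing list (1.69 to 2.94) and the glycolysis list (1.29 to 5.35) lay above it.

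**Figure D4:**
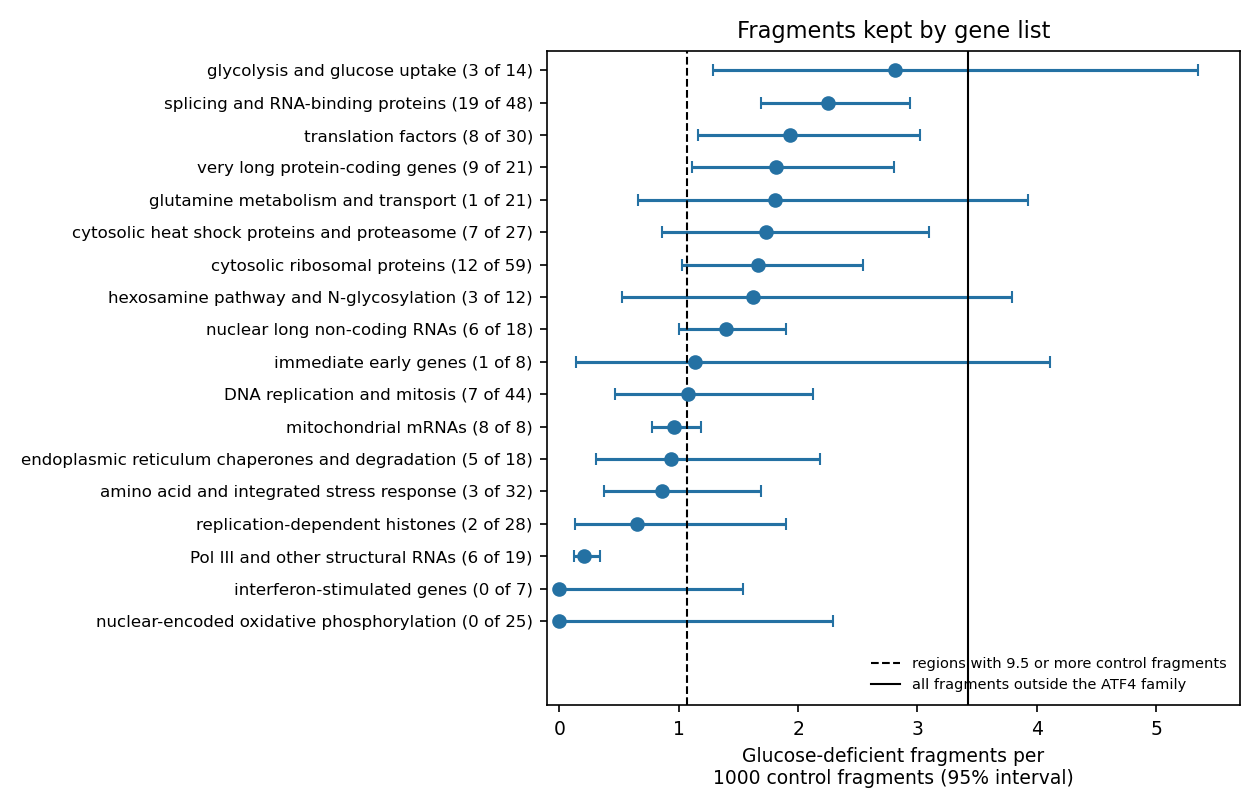
Glucose-deficient fragments per 1000 control fragments with 95% intervals for the 18 gene lists with 1000 or more control fragments, with the number of listed genes that had a fragment in brackets. The structural RNAs lie lowest of the lists with any fragment, at 0.210, and the dashed and solid lines mark the listed regions with 9.5 or more control fragments (1.07) and the whole residual (3.42). 7SK holds 55249 of the 80994.5 control fragments of the structural RNAs.

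The base composition of the mRNA went with the kept rate. Of 3865 protein-coding genes with 9.5 or more control fragments, 3842 (99.4%) had a coding transcript in GENCODE release 29, and they were split into 5 classes of like size by the GC content of the longest one. The class with the lowest GC content, 31.3% to 40.3%, kept 53 fragments against 78178, or 0.678 per 1000 (0.508 to 0.887). The next classes kept 0.783, 1.35 and 1.36, and the class with the highest GC content, 55.6% to 73.9%, kept 167 against 87231.5, or 1.91 (1.63 to 2.23). The highest class kept 2.82 times as much as the lowest (2.06 to 3.92).

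The share of genes seen moved the same way, from 4.55% to 14.6%, although the median control count was no higher in the highest class (50.5 fragments) than in the lowest (54.5). Classes by transcript length gave no such order, with 1.29, 1.04, 1.34, 1.34 and 1.17 per 1000 from the shortest to the longest. The ATF4 mRNA has a GC content of 56.7%, within the range of the highest class. GC content was that of the whole transcript, since the regions have no coordinates, and the part of library preparation in this order was not tested.

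**Figure D5:**
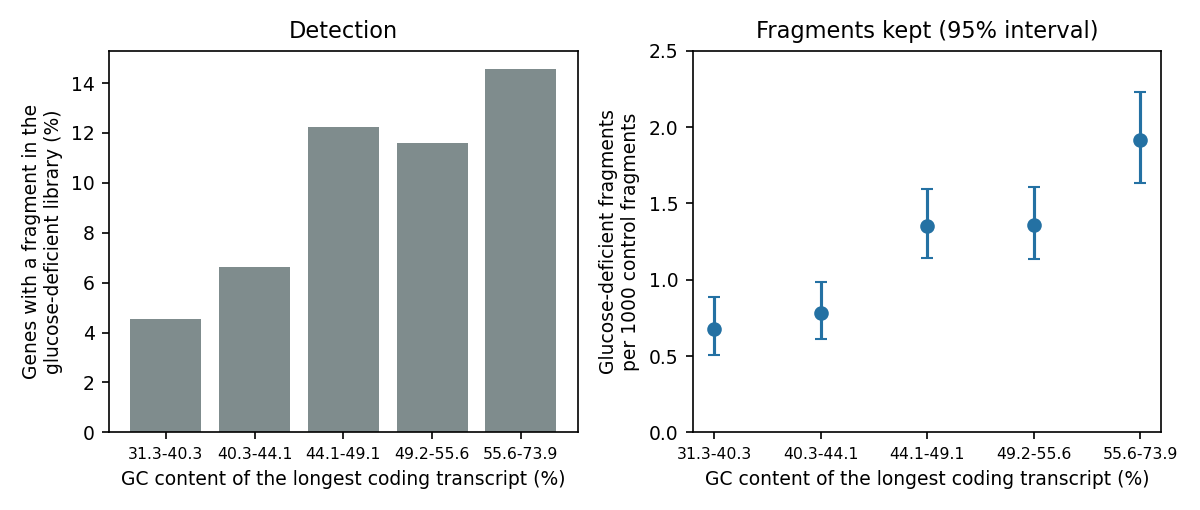
Percentage of protein-coding genes with a glucose-deficient fragment (left) and glucose-deficient fragments per 1000 control fragments with 95% intervals (right), by class of transcript GC content, 1 library a side. Both are lowest in the class of lowest GC content (4.55% and 0.678) and highest in the class of highest GC content (14.6% and 1.91).

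Chromosomes differed in the same measure. Chromosome 16 kept 47 fragments against 23119.5, or 2.03 per 1000 (1.49 to 2.70), with 8 of them from SRRM2. Chromosome 19 kept 57 against 34015, or 1.68 (1.27 to 2.17). Chromosome 18 had 0 against 4384.5 over 111 regions, with an interval that ended at 0.842. Chromosome 6, where 7SK lies, kept 22 against 88134, or 0.250 (0.156 to 0.378). Of these, 7SK alone held 1 and 55249, so this low rate rests largely on 1 region. Regions with 2 or fewer control fragments are left out of these values.

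By kind of RNA, listed protein-coding regions kept 596 fragments against 492474, or 1.21 per 1000 (1.11 to 1.31). Pseudogene regions kept 26 against 37887, or 0.686 (0.448 to 1.01), and rows that name no gene kept 24.5 against 35461, or 0.691 (0.445 to 1.02). The richest row without a gene name had 7139.5 control fragments and 0 in the glucose-deficient library. A read may fit a pseudogene and its parent gene nearly alike, which makes the values of pseudogenes uncertain.

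The labelled origin of the cells could hardly be checked from the listed rows. Of 12 epithelial genes 1 was listed, the keratin gene KRT8 with 0 fragments against 24, and of 10 lung epithelial genes 0 were listed. Of 15 mesenchymal genes 3 were listed, with VIM, the filament protein vimentin, at 0 against 292. Markers of other cells were nearly lacking too: 1 leukocyte gene (CSF1R, 0 against 38.5), 2 neuronal genes (NCAM1 with 1 against 63 and SYN1 with 0 against 86) and 0 erythroid or endothelial genes were listed.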

How the data were processed

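The authors deposited RPM values, reads scaled to the library total, per the file headers. The aligner was HISAT2 2.0.5 and the genome hg38, per the submitters' processing notes. The calling, counting and choice of regions, the annotation and the use of strand are details not given in the sources used here.

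Deposited RPM values rise in steps of 0.264 (control) and 0.0533 (glucose-deficient) from an offset of 0.5 fragment. With the offset taken off, 63.3% and 99.96% of values were whole fragments and the rest lay within 0.00203 of a multiple of 0.5. Rows of different genes with the same values within 12 rows were merged where the genes lie within 10 kb (or within 4 rows where a gene lacks coordinates). Identifiers matched the name table in 5932 of 5932 cases and GENCODE release 29 in 5796. The 691 rows without a gene name stayed out of gene counts but in the totals.

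A gene is the sum of its regions. Ratios are of shares of fragments outside ATF4, ATF4P3 and ATF4P4, with exact conditional binomial intervals at 95%, a 2-fold threshold and a floor of 3 fragments for 0. The genes named are the 20 with the most glucose-deficient fragments, those with the whole interval beyond 2-fold, those with the most control fragments at 0, and up to 4 per list by control fragments. Genes on the Y chromosome and of X inactivation are not named, and a few genes that the rule names are not reported here. The members and the 27 lists were chosen with earlier results of these data known, and the merging rule, the GC classes and some alternatives after the files were seen. Alternatives were other denominators, TMM factors from edgeR 4.0.16 (R 4.3.3), the offset kept, a pseudocount, filters and a 4-fold threshold. The recovery step was tested on simulated whole fragments. The interval step was tested on simulated data, with its pass marks set at a depth far above that of the glucose-deficient library. Scripts used Biopython 1.88, matplotlib 3.10.9, scipy 1.17.1, numpy 2.4.6 and pandas 2.3.3 in Python 3.11.15.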

Additional observations from a re-analysis of the deposited data

How the results depend on the processing

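No paired analysis was possible because each group has 1 library. The count of genes at least 2-fold higher (249) was 414 with shares of the listed fragments alone, 151 with TMM factors, 135 at 4-fold, 5215 with the offset kept and 3688 with a pseudocount of 0.5 fragment, both of which call genes at 0 fragments higher. The count lower (69) was 7, 161, 11, 99 and 354 in the same order, and 35 with the richest region standing for each gene. By whole interval, the 8 higher genes became 32 with listed fragments, 5 at 4-fold and 3 without regions of 2 or fewer control fragments. The 12 lower genes became 2 with listed fragments (7SK and RN7SK, on 1 region), 27 with TMM factors and 4 at 4-fold. Genes seen (535) were 326 in the richest region alone and 184 with 2 or more fragments. The share outside the family was 0.148% with ATF4 alone set aside. The kept rate of 1.36 was 1.49 without the 10 most abundant control genes, 1.04 without genes of 10 or more glucose-deficient fragments, 1.07 without regions of 2 or fewer control fragments and 1.23 with every row counted. With listed denominators 2 of 18 lists, not 14, lay below 1. Of 49 named genes with fragments on both sides, 18 crossed a ratio of 1 with listed denominators and 3 with TMM factors; of those called 2-fold, MT-ATP6 (1.14), STC2 (1.10) and NCL (1.14) turned with listed denominators. There MALAT1, MT-ND4, MT-CO2, MT-CO1, RMRP, RN7SL1 and MT-RNR2 lost their whole-interval call, and GAPDH (6.12) gained one; with TMM factors 7 named genes gained one and ASNS (3.81) lost it. Except where a construction is named, the cause was not tested. Depth limits the genes at 0: the floor of 3 fragments put in place of 0 equals 0.160 RPM (glucose-deficient) and 0.793 RPM (control).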
